A study of Mus musculus with 157 samples.

Results

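Chemokine receptors are the surface proteins through which a macrophage reads gradients of chemokines. The 5 receptor genes followed here, Ccr1, Ccr2, Cx3cr1, Cxcr4 and Ccrl2, were taken by symbol from the 24940 genes of each of 8 deposited expression tables, and each was found as 1 row in every table. The tables held poly-A RNA-seq values for 115 libraries of mouse bone marrow-derived macrophages (BMDM), which are macrophages grown from marrow precursors with the growth factor M-CSF, in 45 groups of 2 or 3 libraries. The cells had been given PBS as the control or particles at 250 µg/mL: monosodium urate crystals (MSUc), the crystals of gout, calcium pyrophosphate dihydrate crystals (CPPD), silica nanoparticles, or the adjuvant aluminum hydroxide (alum). DOT1L, TFE3, TFEB, H3K27ac and H3K4me3 ChIP-seq lists from the same kind of cell were used for the regions around these genes.

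The time course had C57BL/6 cells in PBS or MSUc for 10 min, 30 min, 1 h, 2 h or 5 h. The particle panel had cells in PBS, MSUc, CPPD, silica or alum, and 1 alum sample was not analysed here. Cells titled Tfe3WT and Tfe3KO received PBS, MSUc, CPPD or silica; the origin of the Tfe3KO mice and the nature of that deletion are not given in the sources used here, and the genotype field of the samples titled Tfe3WT also reads Tfe3KO, so titles were followed. Cells titled TfebWT and TfebTg (from Tfeb-Tg mice; the promoter driving the transgene is not given in the sources used here), cells titled WT, B40KO (Bhlhe40-/-) and B41KO (Bhlhe41-/-), and cells titled Ampka1WT and Ampka1KO (Ampka1-/- and congenic WT mice aged 7 to 8 weeks) received PBS or MSUc. Vehicle was compared with 1 µM SGC0946, an inhibitor of the H3K79 methyltransferase DOT1L present from day 0, and, in a separate experiment, with metformin, a drug known to activate the energy sensor AMPK, whose dose is not given in the sources used here. The Ampka1 cultures had 5 ng/mL of M-CSF in RPMI, and the C57BL/6, Tfeb-Tg, Bhlhe40-/- and Bhlhe41-/- cultures had 16 ng/mL in DMEM, so levels in the Ampka1 table differ from the others in medium and growth factor dose as well as in genotype. For the RNA-seq libraries, exposure times outside the time course are not given in the sources used here, nor is it stated which came from separate mice, so p-values measure the spread between these libraries, which may be technical. The headers of the H3K27ac and H3K4me3 tables give 5 h and a mouse number for each library. Those of H3K27ac also read Vehicle, which those of H3K4me3 do not. Mouse numbers recur between PBS and MSUc for both marks.

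As background, CCR1, CCR2, CX3CR1 and CXCR4 are receptors with 7 membrane-spanning helices that signal mainly through inhibitory G proteins, which drive cell movement, and that are then switched off by GRK kinases, arrestins and RGS proteins. CCR2 and its ligand CCL2 bring classical monocytes from marrow into inflamed tissue, and both CCR2 and CX3CR1, the receptor for the membrane-tethered chemokine CX3CL1, are in wide use as marks of monocytes and of their progeny. CXCR4 binds CXCL12 and holds leukocytes in the marrow, CCR1 binds CCL3, CCL5, CCL7 and CCL9, and CCRL2 is an atypical receptor that binds the attractant chemerin (gene Rarres2) without G protein signalling.

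By the positions in the tables (build mm10), Ccr1 lies at chr9:123962126-123968692 on the minus strand and Ccr2 at chr9:124102183-124109140 on the plus strand, in a cluster with Ccr3 and Ccr1l1. Cx3cr1 lies at chr9:120048683-120068296, Ccrl2 at chr9:111054834-111057270 and Cxcr4 at chr1:128588199-128592299, all on the minus strand. No other gene of the tables overlapped a member, and the nearest neighbour was Ccr1l1, 8.26 kb from Ccr1. The 250 bases before the start are printed from RefSeq (build GRCm38.p6) for 4 members, 5′ to 3′ on the gene's strand: Cx3cr1 and Cxcr4 because regions that lost histone marks in MSUc lie over them (described with the ChIP lists), Ccr1 and Ccrl2 because these are the members that rose. Capitals mark matches to a motif searched on both strands.
Cx3cr1 (chr9:120068297-120068546, minus strand): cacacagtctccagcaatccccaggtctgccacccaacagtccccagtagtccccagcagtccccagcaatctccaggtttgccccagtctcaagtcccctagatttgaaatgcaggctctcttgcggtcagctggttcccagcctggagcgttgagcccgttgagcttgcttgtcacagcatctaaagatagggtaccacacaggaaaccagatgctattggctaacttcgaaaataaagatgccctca
Cxcr4 (chr1:128592300-128592549, minus strand): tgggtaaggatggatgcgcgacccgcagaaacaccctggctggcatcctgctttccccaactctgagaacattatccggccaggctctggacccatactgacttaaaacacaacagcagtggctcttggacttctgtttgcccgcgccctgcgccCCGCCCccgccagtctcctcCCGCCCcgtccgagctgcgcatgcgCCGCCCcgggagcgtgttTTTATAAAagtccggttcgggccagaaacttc
Ccr1 (chr9:123968693-123968942, minus strand): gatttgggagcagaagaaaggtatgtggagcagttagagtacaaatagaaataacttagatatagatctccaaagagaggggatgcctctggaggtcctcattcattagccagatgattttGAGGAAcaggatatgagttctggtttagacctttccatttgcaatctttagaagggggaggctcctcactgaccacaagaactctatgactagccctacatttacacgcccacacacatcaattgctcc
Ccrl2 (chr9:111057271-111057520, minus strand; 1 of 3 starts RefSeq lists): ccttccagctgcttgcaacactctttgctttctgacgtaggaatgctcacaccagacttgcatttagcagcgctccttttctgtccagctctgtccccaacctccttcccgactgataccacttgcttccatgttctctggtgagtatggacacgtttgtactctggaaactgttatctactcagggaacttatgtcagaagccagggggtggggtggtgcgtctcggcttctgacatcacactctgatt
The 6 motifs searched were the E-box CACGTG that TFE3 and TFEB are known to bind (in 6.02% of 32851 promoter windows of this length), the TATA box TATAAA (12.4%), the GC box GGGCGG (32.7%), the AP-1 motif TGANTCA (6.75%), an NF-kB motif of 10 letters (1.41%) and the PU.1 core GAGGAA (23.3%). Cxcr4 had 3 GC boxes, read on the reverse strand, at 95, 75 and 50 bases before the start, and a TATA box at 30 bases that overlaps a reverse-strand match at 32. Its window was 61.2% G and C. Ccr1 had 1 PU.1 core, 129 bases before the start, in a window of 43.6% G and C. None of these letters occurred in the windows of Cx3cr1 (53.6% G and C), Ccrl2 (50.8%) or Ccr2 (37.2%).

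Library depth, read from the steps of the TPM values, was 2.12 to 22.1 M reads (median 10.1 M), and the fewest reads behind a value were 33 for Ccr1, 1 for Ccr2, 3 for Cx3cr1, 1426 for Cxcr4 and 48 for Ccrl2. All 8 macrophage markers were above 1 TPM in every group (summed 8393 to 41150 TPM), and 6 T or NK cell markers summed to at most 3.65 TPM. Other lists were not as low in every group. Fibroblast or stroma markers summed to up to 2969 TPM and monocyte markers to up to 93.5 (both in Ampka1KO MSUc). Neutrophil markers summed to up to 1941 TPM (Tfe3WT silica). The labels were checked against the targeted gene: Tfeb was higher in TfebTg (75.1 to 299 TPM) than in TfebWT (25.5 to 44.4), and Bhlhe40 was lower in B40KO (5.59 to 17.1) than in WT (57.8 to 313). The transcript levels of Tfe3 (31.1 to 97.7 against 52.3 to 108 TPM), Bhlhe41 (46.3 to 50.3 against 49.8 to 94.9) and Prkaa1, which encodes AMPK alpha 1 (24.3 to 31.1 against 21.2 to 25.4), overlapped with or exceeded those of the controls, so they do not check the labels Tfe3KO, B41KO and Ampka1KO, and every direction given for these cells rests on the label. The treatment field of the library titled TfebWT MSUc replicate 3 reads PBS. In the time course libraries of the same number did not deviate alike: in PBS from 30 min to 5 h the deviation from the group mean went against that in PBS at 10 min (r across genes -0.47 to -0.37), while in every MSUc group it went with it (0.39 to 0.48). Rescaling each library by its median ratio raised the median log2 change of all genes by 0.13 to 0.28 in the 8 control comparisons of MSUc with PBS, and moved it by at most 0.44 among all 55 comparisons. In those 8, 27.6% to 36.4% of the called genes were higher as deposited and 49.1% to 54.98% after rescaling.

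In unstimulated control cells Cxcr4 was the member with the highest TPM, a value per transcript length, in each of the 8 experiments, at 260 to 668 TPM in 21 libraries. The group means in PBS differed between experiments by 2.08-fold for Cxcr4 and 3.65-fold for Ccrl2. They differed by 12.1-fold for Cx3cr1, 22.1-fold for Ccr1 and 30.01-fold for Ccr2, and since each table was scaled on its own these differences between tables were not tested. Ccr1 was near 5 to 6 TPM in the Tfe3 (5.25 ± 2.07, SD, n = 3), particle (5.55 ± 0.53, n = 3) and time course (6.02 ± 1.83 at 5 h, n = 2) controls, which do not differ beyond their spread. A second step held the metformin vehicle (15.8 ± 4.7, n = 3), TfebWT (17.1 ± 3.8, n = 2), DOT1L vehicle (20.6 ± 5.2, n = 3) and Bhlhe WT (21.1 ± 0.4, n = 2) cells, again within their spread, and Ampka1WT cells stood apart at 116 ± 4 TPM (n = 3).

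Ccr2 had another order. It was lowest in the DOT1L vehicle (2.91 ± 0.66), Bhlhe WT (3.40 ± 0.76) and metformin vehicle (4.62 ± 2.81) controls, higher in the particle panel (19.2 ± 4.6), Ampka1WT (20.9 ± 3.6), TfebWT (25.9 ± 3.4) and Tfe3WT (32.9 ± 21.3) controls, and highest in the time course at 5 h (87.4 ± 22.4). Neighbours within the lowest and within the middle set overlapped. Cx3cr1 ran from 7.99 ± 0.34 TPM in Ampka1WT, 13.5 ± 2.6 in metformin vehicle and 20.2 ± 2.8 in DOT1L vehicle to 71.5 ± 6.3 in TfebWT, with the Bhlhe WT, particle and Tfe3WT controls in between, and its time course mean of 96.5 ± 80.7 at 5 h rested on 39.5 and 154 TPM. As RNA was read from whole cultures, a lower level of a receptor can be fewer cells carrying it or less RNA per cell, and these cannot be told apart.

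**Figure D1:**
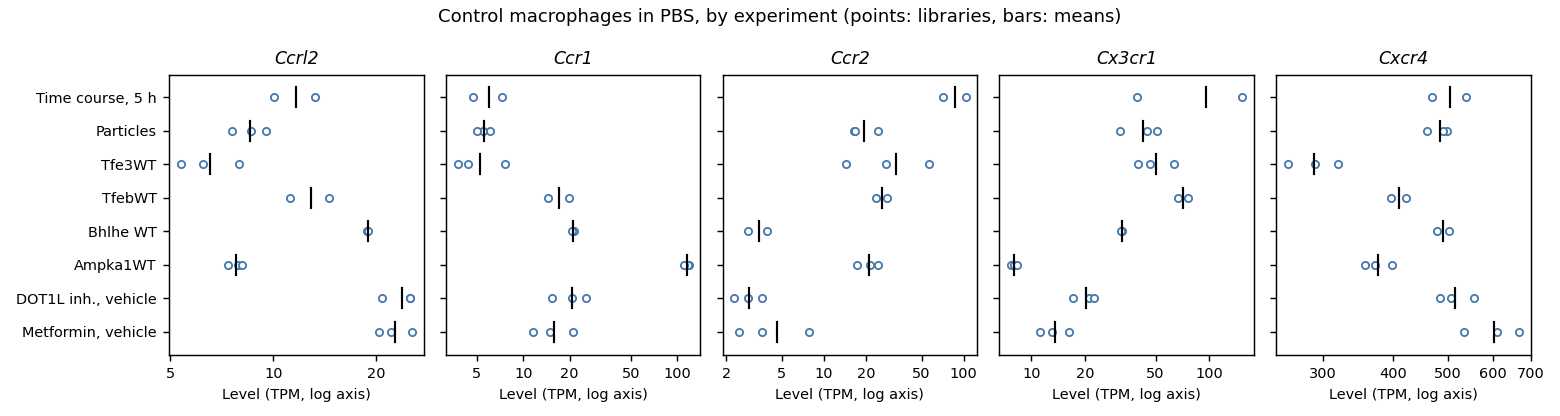
TPM (log axis) of the 5 receptors in PBS-treated control libraries of the 8 experiments; each point is 1 library and each bar a group mean. Cxcr4 lies between 260 and 668 TPM throughout, while group means of Ccr2 span 2.91 to 87.4 TPM and those of Ccr1 span 5.25 to 116 TPM.

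The time course asked when after MSUc each receptor changed. Ccrl2 was the first: it rose by 30 min, stood at its highest at 2 h and was still high at 5 h, while Ccr1 rose and Ccr2 fell from 2 h on, and Cx3cr1 and Cxcr4 had lower mean levels at 2 h and 5 h without passing the test in a fit that takes no account of which libraries go together. Ccrl2 was at 11.8 and 15.6 TPM in PBS and 13.8 and 19.8 TPM in MSUc at 10 min. At 30 min it was at 14.4 and 11.3 TPM in PBS against 42.8 and 80.7 in MSUc. At 1 h the MSUc libraries stood at 84.5 and 149 TPM, at 2 h at 123 and 197 and at 5 h at 89.3 and 156, with PBS between 8.11 and 15.1 from 30 min to 5 h. From 30 min on the MSUc libraries lay above every PBS library.

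The log2 change of Ccrl2 was 2.12 ± 0.40 (SE; limma, adjusted p = 0.0288) at 30 min, where 0.68% of the 12350 genes tested were called (adjusted p under 0.05) and Ccrl2 was the 1 member called. It was 3.22 ± 0.40 (adjusted p = 0.000338) at 1 h, where Ccrl2 was again the 1 member called against 3.28% of all genes. At 10 min no member was called (0.0567% of all genes). The 30 min call was lost after rescaling (adjusted p = 0.0564), without the filter on low genes (0.0520), with those groups fitted alone (0.354), and without either PBS library (0.154 and 0.126) or MSUc replicate 2 (log2 1.67, 0.458), the lone library of an arm being taken to vary like the other groups, and the 1 h call was lost with the groups fitted alone (0.0682).

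Ccr1 in MSUc went from 5.23 and 8.35 TPM at 10 min through 9.48 and 14.9 at 1 h and 14.6 and 19.2 at 2 h to 36.9 and 50.6 at 5 h, while its PBS libraries stayed between 4.59 and 9.06 TPM. From 1 h on the groups did not overlap. Its log2 change was 0.79 ± 0.39 at 1 h (adjusted p = 0.429), 1.27 ± 0.39 at 2 h (0.0232) and 2.68 ± 0.39 at 5 h (9.7e-05). The 2 h call was lost without PBS replicate 2 (0.93, 0.171), MSUc replicate 1 (1.46, 0.0513) or MSUc replicate 2 (1.08, 0.125).

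Ccr2 in MSUc was at 83.3 and 64.5 TPM at 1 h, inside the PBS range of 67.2 to 103 from 1 h to 5 h or just under it, then at 36.1 and 29.2 TPM at 2 h and 14.1 and 12.5 at 5 h. Its log2 change was -1.35 ± 0.24 at 2 h (adjusted p = 0.00114) and -2.61 ± 0.24 at 5 h (2.88e-06). Both later MSUc groups lay below every PBS library. At 2 h 3 of 5 members were called, against 33.5% of all genes, and at 5 h again 3 of 5, against 49.3%. Between PBS at 10 min and at 5 h no member was called by limma (0.0% of all genes), and neither there nor at 10 min of MSUc did a member have an unadjusted p under 0.05.

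Cx3cr1 differed widely between the libraries of each group. In MSUc it was at 127 and 28.4 TPM at 1 h, 55.6 and 16.2 at 2 h and 23.0 and 5.75 at 5 h, while PBS at 5 h held 39.5 and 154 TPM. The 5 h groups did not overlap, but the log2 change of -2.63 ± 1.22 did not pass the test (adjusted p = 0.093). That fit has no term for the libraries that deviate together across groups, as described with the library checks, and the closing section names the members that gained a call with one. Cxcr4 at 5 h was at 537 and 469 TPM in PBS and at 289 and 427 in MSUc, with no overlap and a log2 change of -0.51 ± 0.20 (0.0516). After rescaling this change was -0.26 (limma, adjusted p = 0.41). With a filter at 5 TPM Cxcr4 was called (0.0469). Without MSUc replicate 2, which leaves 1 library in that group, its log2 change was -0.79.

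**Figure D2:**
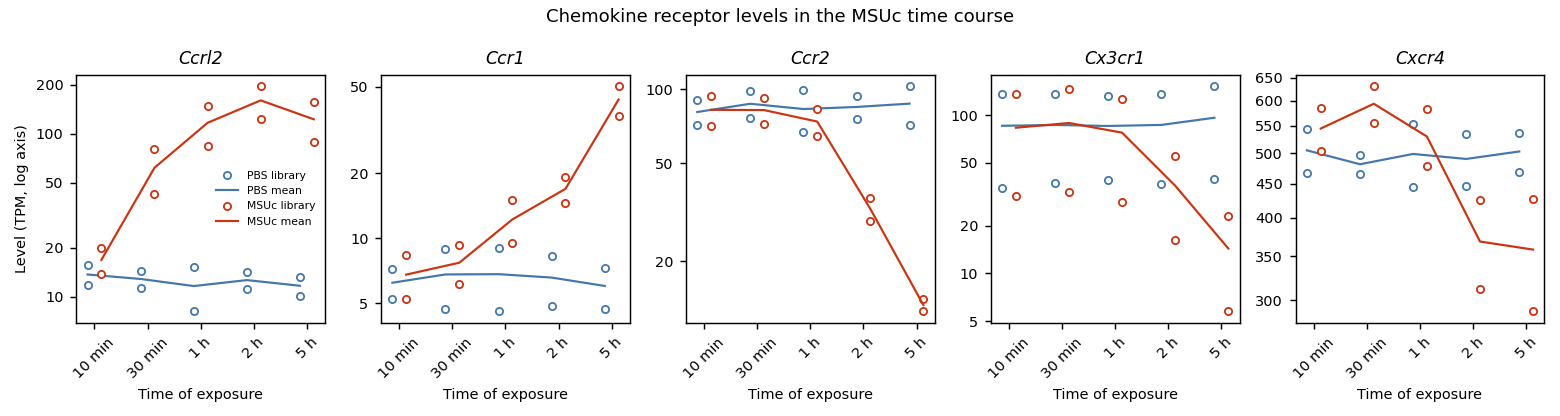
TPM (log axis) of the 5 receptors against time after PBS or MSUc in the time course; points are single libraries (2 per group) and lines join group means. Ccrl2 in MSUc has both libraries above the PBS range of 8.11 to 15.6 TPM from 30 min on, Ccr1 has both above PBS from 1 h on, and Ccr2 falls to 14.1 and 12.5 TPM by 5 h.

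Across the control cells of the 8 experiments, MSUc raised Ccr1 in 8 of 8 (log2 change 1.82 to 2.73, median 2.48) and Ccrl2 in 8 of 8 (2.38 to 4.14, median 3.26). It lowered Ccr2 in 8 of 8 (-2.68 to -1.27, median -2.45) and Cx3cr1 in 6 of 8 (-3.51 to -0.13, median -2.69), the exceptions being the time course and Ampka1WT. Cxcr4 was called higher in 3, lower in 3 and not called in 2 as deposited (-0.70 to 0.51), and higher in 3, lower in 1 and not called in 4 after rescaling (-0.38 to 0.87). In these comparisons 12.6% to 20.0% of all genes were called higher and 32.9% to 44.9% lower. The PBS and MSUc libraries of Ccr1, Ccr2 and Ccrl2 did not overlap in any of the 8. Those of Cx3cr1 and of Cxcr4 did not overlap in 7 of the 8, whatever the direction, so lack of overlap does not set a member apart. The share of all genes without overlap was not counted, and groups of 2 or 3 libraries separate easily. Rescaling changed the sign of no Ccr2 value, 1 Ccr1, 1 Cx3cr1, 3 Ccrl2 and 4 Cxcr4 values among 55 comparisons each. Cxcr4 changes below are therefore given with the rescaled value where sign or call moved, and in some other comparisons. Those given below without a rescaled value kept their sign and call, though their size can differ.

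The particle panel compared particle kinds. MSUc, CPPD and silica each raised Ccr1 and Ccrl2 and lowered Ccr2 and Cx3cr1, whereas alum raised Ccrl2 and lowered Ccr2 with a change of Ccr1 under 0.5 on the log2 scale. Ccr1 was at 6.09, 5.52 and 5.04 TPM in PBS, 41.3, 39.5 and 34.9 in MSUc, 25.6, 17.2 and 17.1 in CPPD, 31.3 and 32.8 in silica and 9.06 and 7.09 in alum. No particle library overlapped with PBS, and the log2 changes were 2.59 ± 0.15 for MSUc (adjusted p = 5.03e-08), 1.66 ± 0.15 for CPPD (3.09e-06), 2.34 ± 0.17 for silica (6.11e-07) and 0.46 ± 0.17 for alum (0.038). The alum call was lost after rescaling (0.36, 0.104), without the low-value filter (0.0625), and without PBS replicate 2 (0.0769), PBS replicate 3 (0.105) or alum replicate 1 (0.31, 0.276).

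Ccrl2 was at 8.60, 9.50 and 7.58 TPM in PBS, at 95.1, 95.3 and 83.7 in MSUc, at 79.9, 136 and 73.2 in CPPD, at 84.3 and 93.5 in silica and at 35.9 and 44.4 in alum. Every particle library lay above every PBS library, and the alum libraries lay below those of the other 3 particles. Its log2 change was 3.27 ± 0.19 in MSUc, 3.30 ± 0.19 in CPPD, 3.24 ± 0.21 in silica and 2.10 ± 0.21 in alum (all called).

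Ccr2 was at 16.5, 16.6 and 24.5 TPM in PBS, 2.07, 1.61 and 2.73 in MSUc, 3.51, 2.47 and 4.34 in CPPD, 5.28 and 6.08 in silica and 4.35 and 4.98 in alum. All particle libraries lay below PBS (log2 -2.68 ± 0.19, -2.19 ± 0.19, -1.58 ± 0.22 and -1.81 ± 0.22, all called). Cx3cr1 was at 31.5, 44.5 and 51.2 TPM in PBS, 4.04 to 7.54 in MSUc, 5.28 to 8.96 in CPPD, 5.28 and 3.46 in silica, and 25.7 and 25.8 in alum. Its log2 change was -2.76 ± 0.24, -2.49 ± 0.24 and -3.01 ± 0.27 in the first 3 particles. In alum it was -0.67 ± 0.27 (adjusted p = 0.0568), and this was called after rescaling (-0.77, 0.0289), with a filter at 5 TPM (0.0466), with the groups fitted alone (0.0219) and without PBS replicate 1 (-0.86, 0.0247).

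Cxcr4 was at 459, 498 and 490 TPM in PBS, 268, 340 and 285 in MSUc, 237, 211 and 246 in CPPD, 481 and 570 in silica and 396 and 388 in alum. Silica overlapped with PBS and the other particles lay below it. Its log2 change was -0.70 ± 0.10 in MSUc (-0.38 rescaled, adjusted p = 0.0178), -1.06 ± 0.10 in CPPD (-0.83 rescaled), 0.12 ± 0.11 in silica (0.371 as deposited; 0.53 and 0.00417 rescaled) and -0.30 ± 0.11 in alum (0.0473; -0.41 rescaled). The alum call was lost without the low-value filter (0.0755) and without any 1 of the 5 libraries (0.0593 to 0.169). Members called were 5 of 5 in MSUc, 5 in CPPD, 4 in silica and 4 in alum, against 63.0%, 52.4%, 68.4% and 46.2% of all genes.

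The particles were also compared with MSUc directly. CPPD gave less Ccr1 (-0.94 ± 0.15, adjusted p = 0.000938) and less Cxcr4 (-0.36 ± 0.10, 0.0255; lost without MSUc replicate 2, -0.26 and 0.115, CPPD replicate 1, 0.0539, or CPPD replicate 2, 0.0939), with 2 of 5 members called against 23.6% of all genes. The CPPD value for Ccr2 was 0.49 ± 0.19 (0.0884), called without CPPD replicate 2 (0.66, 0.0399). Silica gave more Ccr2 (1.10 ± 0.22, 0.000783) and more Cxcr4 (0.82 ± 0.11, 5.88e-05), 2 of 5 against 63.7%. Alum differed from MSUc in 5 of 5 members, against 53.3% of all genes: Ccr1 differed by -2.13 ± 0.17 and Ccrl2 by -1.17 ± 0.21 on the log2 scale, while Cx3cr1 was higher by 2.09 ± 0.27, Ccr2 by 0.86 ± 0.22 (0.00544; 0.54 and 0.0694 rescaled) and Cxcr4 by 0.40 ± 0.11 (0.0103; -0.03 and 0.900 rescaled, so its direction flipped; also lost without alum replicate 1, 0.0588). For Ccrl2 the difference from MSUc was 0.03 ± 0.19 in CPPD and -0.04 ± 0.21 in silica, neither called and both with the opposite sign after rescaling (-0.07 and 0.05). A p that misses the threshold does not show that the particles act alike. Neutrophil markers summed to 258 to 359 TPM in silica and 48.0 to 111 in PBS, 55.8 to 124 in MSUc, 35.6 to 66.5 in CPPD and 54.3 to 91.8 in alum; their part in the silica values was not tested.

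**Figure D3:**
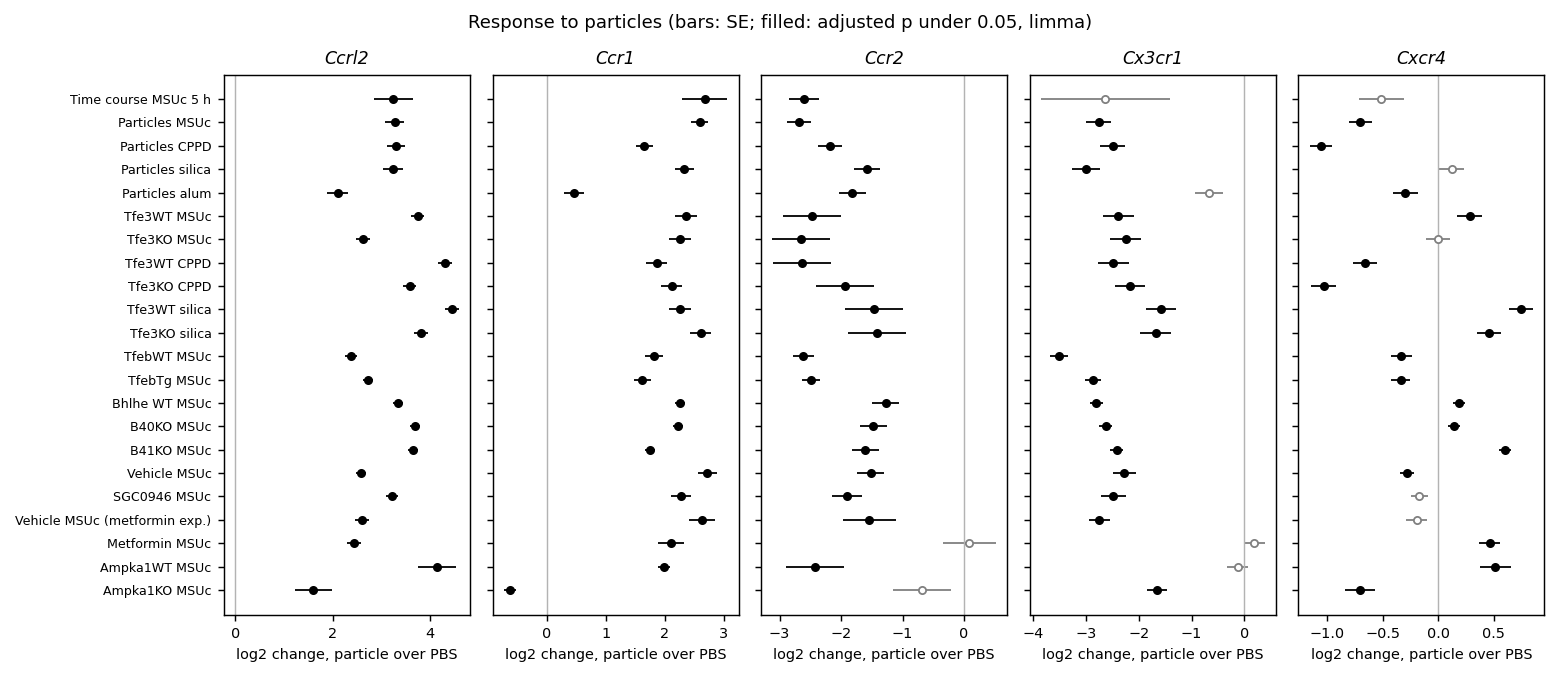
Log2 change against PBS (x axis, log2(TPM + 1) scale, bars 1 SE) of the 5 receptors for each particle and cell group of the 8 experiments, 1 row per comparison; filled points have an adjusted p under 0.05 in limma and open points do not. In the 4 rows of the particle panel Ccrl2 is at 2.10 or more and Ccr2 at -1.58 or less, and Cxcr4 lies on both sides of 0 over the 22 rows.

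In the Tfe3 experiment the same receptors moved in Tfe3WT cells, and the cells labelled Tfe3KO differed in 1 member, Ccrl2, whose rise with MSUc was smaller. TFE3 is a transcription factor of lysosome genes, related to TFEB. Ccrl2 in Tfe3WT was at 5.36, 6.23 and 7.93 TPM in PBS and at 108, 89.4 and 99.0 in MSUc. In cells labelled Tfe3KO it was at 10.2, 8.96 and 9.42 TPM in PBS and at 64.8, 62.9 and 62.8 in MSUc. The genotypes overlapped in neither state, and the label Tfe3KO went with higher Ccrl2 in PBS and with lower Ccrl2 in MSUc. The log2 difference between genotypes was 0.50 ± 0.14 in PBS (adjusted p = 0.065) and -0.63 ± 0.14 in MSUc (0.0048), and the MSUc responses differed by -1.13 ± 0.20 (0.00407). Neutrophil markers summed to 525 to 691 TPM in Tfe3WT and 292 to 446 in Tfe3KO in MSUc, without overlap, and to 293 to 562 and 209 to 377 in PBS, and their part in the Ccrl2 difference was not tested.

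For CPPD the Ccrl2 responses differed by -0.73 ± 0.20 (adjusted p = 0.0889) and for silica by -0.64 ± 0.20 (0.103). Without Tfe3WT PBS replicate 3 these became -0.86 (0.0370) and -0.77 (0.0494), and the PBS difference 0.63 (0.0260; with a pseudocount of 0.1 it was 0.56, 0.0443). Members called between the genotypes were 0 of 5 in PBS (2.37% of all genes), 1 in MSUc (10.7%), 0 in CPPD (8.1%) and 0 in silica (12.5%). For the difference of responses they were 1 in MSUc (1.73%), 0 in CPPD (0.93%) and 0 in silica (1.52%). Among the comparisons with 0 calls by limma, the members with an unadjusted p under 0.05 numbered 1 in PBS, 0 in CPPD and 1 in silica, and 2 and 1 for the CPPD and silica responses. The value for Ccr2 between genotypes in CPPD was 0.94 ± 0.47 (0.283).

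Against PBS, Tfe3WT cells had 5 of 5 members called in MSUc (61.6% of all genes), CPPD (60.2%) and silica (65.8%), and cells labelled Tfe3KO had 4 in MSUc (62.5%), 5 in CPPD (61.2%) and 5 in silica (69.4%). Ccr1 in Tfe3WT went from 4.38, 7.61 and 3.75 TPM to 34.6, 31.5 and 25.0 in MSUc, and in cells labelled Tfe3KO from 4.33, 5.77 and 5.49 to 24.6, 32.0 and 29.6, so MSUc and PBS did not overlap in either. Cxcr4, the marrow-retention receptor, followed the particle: in Tfe3WT it was at 290, 260 and 319 TPM in PBS, 406, 323 and 329 in MSUc, 202, 170 and 175 in CPPD and 526, 466 and 461 in silica. MSUc and silica lay above PBS and CPPD below it, and in cells labelled Tfe3KO the same held for CPPD (158, 155 and 180 TPM against 323, 309 and 382) and silica (465, 414 and 513), while MSUc (336, 312 and 361) overlapped with PBS.

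The log2 change of Cxcr4 in Tfe3WT was 0.28 ± 0.11 in MSUc (adjusted p = 0.0325; 0.51 rescaled), -0.66 ± 0.11 in CPPD (-0.41 rescaled) and 0.74 ± 0.11 in silica (0.85 rescaled). In cells labelled Tfe3KO it was -0.00 ± 0.11 in MSUc (0.979; 0.24 rescaled, a flip of sign, neither called), -1.03 ± 0.11 in CPPD and 0.46 ± 0.11 in silica. The Tfe3WT MSUc call was lost without the low-value filter (0.0528), with the groups fitted alone (0.0581) and without PBS replicate 1 (0.0594), PBS replicate 2 (0.153) or MSUc replicate 1 (0.17, 0.200). The silica falls of Ccr2 rested on single libraries: in Tfe3WT (14.4, 56.1 and 28.0 TPM to 6.58, 16.4 and 8.27, overlapping; -1.46 ± 0.47, 0.0100) the call was lost without PBS replicate 2 (-0.98, 0.0813) or silica replicate 1 (0.0514), and in cells labelled Tfe3KO (-1.41 ± 0.47, 0.0117) without PBS replicate 2 (0.0686), silica replicate 3 (0.0672) or all 4 libraries numbered 1 (0.0700). In silica the neutrophil markers summed to 1436 to 1941 TPM in Tfe3WT and to 958 to 1274 in cells labelled Tfe3KO, above the PBS sums given before. There the monocyte markers summed to 80.5 to 85.8 TPM in Tfe3WT and 56.6 to 72.6 in Tfe3KO. The stroma markers summed to 675 to 731 and 256 to 654 TPM. The part of these other cells in the silica values was not tested.

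TFEB, the close relative of TFE3, was overexpressed in TfebTg cells. Ccrl2 was higher in TfebTg cells, at 142, 151 and 123 TPM in MSUc against 64.6, 73.9 and 73.8 in TfebWT, with no overlap and a log2 difference of 0.96 ± 0.11 (adjusted p = 0.000739). In PBS Ccrl2 was at 20.9, 20.0 and 19.2 TPM against 11.2 and 14.5, also without overlap, but 0.61 ± 0.13 did not pass the test (0.0576; 0.0471 with a filter at 5 TPM). Cx3cr1 went the other way: TfebTg cells in PBS held 29.8, 34.1 and 29.6 TPM against 75.9 and 67.0 in TfebWT, a log2 difference of -1.17 ± 0.17 (0.00843). Members called between genotypes were 1 of 5 in PBS, against 0.717% of all genes, and 1 in MSUc, against 3.48%. No MSUc response differed between the genotypes (0 of 5 by limma, 1 with an unadjusted p under 0.05, 0.1% of all genes). Marker sums moved with the genotype. In MSUc the macrophage markers summed to 11420 to 11850 TPM in TfebTg and 13290 to 13650 in TfebWT, and in PBS to 13570 to 14160 and 16530 to 16860. The stroma markers summed to 6.88 to 7.57 TPM in TfebTg MSUc and 12.95 to 26.4 in TfebWT MSUc. The endothelial list summed to 33.2 to 35.6 against 12.7 to 14.4 TPM in MSUc, and Kdr was its 1 gene with a mean over 1 TPM. The mast cell list summed to 26.6 to 29.3 against 6.49 to 7.48 TPM, with Kit as its 1 gene over 1 TPM. The part of other cells in the receptor differences was not tested.

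Within each genotype MSUc gave calls for 5 of 5 members, against 45.5% of all genes in TfebWT and 47.5% in TfebTg. Cx3cr1 in TfebWT fell from 75.9 and 67.0 TPM to 4.76, 6.07 and 5.24 (log2 change -3.51 ± 0.17), the largest fall of this gene among the 8 control comparisons with MSUc. Ccr1 rose from 19.8 and 14.4 to 66.3, 65.5 and 54.997 TPM (1.82 ± 0.16) and Ccr2 fell from 28.3 and 23.5 to 3.80, 3.21 and 3.16 (-2.61 ± 0.17). Cxcr4 changed by -0.33 ± 0.10 in TfebWT (0.0152) and -0.34 ± 0.09 in TfebTg (0.00792), which became -0.04 (0.760) and -0.06 (0.620) after rescaling, and the TfebWT call was lost without PBS replicate 1 (0.106). For all 5 members the library titled TfebWT MSUc replicate 3, whose treatment field reads PBS, lay nearer to the other MSUc libraries than to PBS. Counted as PBS, it ended the 5 TfebWT calls (adjusted p 0.196 to 0.493), the Cxcr4 call in TfebTg (0.0744) and the Ccrl2 call between genotypes in MSUc (0.923), and Cx3cr1 between genotypes in PBS became 0.01 (0.999). The Cx3cr1 call was also lost without TfebWT PBS replicate 1 (0.134) or replicate 2 (0.0792), and Cx3cr1 in MSUc (-0.53 ± 0.15, 0.0971) was called without TfebTg MSUc replicate 2 (-0.70, 0.02002).

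BHLHE40 and BHLHE41 are related repressors that bind E-box sequences. WT, B40KO and cells labelled B41KO all raised Ccr1 and Ccrl2 and lowered Ccr2 and Cx3cr1 in MSUc, with 5 of 5 members called in WT (60.5% of all genes), in B40KO (61.5%) and in B41KO (56.8%). Ccrl2 went from 18.8 and 19.0 TPM to 191 and 208 in WT, from 13.1 and 16.4 to 196 and 206 in B40KO and from 12.7 and 14.3 to 189 and 172 in cells labelled B41KO. The MSUc values of the 3 genotypes lay close together. No member was called between B40KO and WT in PBS (0.0824% of all genes) or in MSUc (0.0165%), nor was any difference of response (0.00824% for B40KO and 0.132% for B41KO). At an unadjusted p under 0.05 there were 1, 1, 1 and 3 members in these 4 limma comparisons.

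Cells labelled B41KO had less Cxcr4 in PBS, at 342 and 330 TPM against 502 and 477 in WT, a log2 difference of -0.54 ± 0.06 (adjusted p = 0.00173). The groups did not overlap. Neutrophil markers summed to 128 to 144 TPM in these PBS libraries and to 30.4 to 33.8 in those of WT. The macrophage markers summed to 14500 to 16190 TPM against 22350 to 22630 in WT, and the stroma markers to 40.5 to 106 against 26.6 to 39.2. None of these sums overlapped, and the part of culture composition in the difference was not tested. In MSUc Cxcr4 in cells labelled B41KO was at 500 and 517 TPM against 550 and 567 (-0.13 ± 0.06, 0.261). There 0 of 5 members were called, against 1.33% of all genes (2 at an unadjusted p under 0.05 in limma). In PBS 2 of 5 were called against 2.76%, the other being Ccrl2 (-0.46 ± 0.10, 0.0491), which was lost without the low-value filter (0.0869), with the groups fitted alone (0.0920) and without any 1 of the 4 libraries (0.132 to 0.220). Cxcr4 rose in MSUc by 0.19 ± 0.06 in WT (0.0138; 0.50 rescaled), 0.14 ± 0.06 in B40KO (0.0453; 0.50 rescaled) and 0.60 ± 0.06 in cells labelled B41KO (0.91 rescaled). The WT call was lost without PBS replicate 2 (0.0923) or MSUc replicate 2 (0.0706), and the B40KO call without the low-value filter (0.0713), with the groups alone (0.113) and without PBS replicate 2 (0.258) or MSUc replicate 1 (0.236).

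In the Ampka1 experiment the MSUc response of all 5 receptors differed between genotypes, though the call for Ccr2 was lost under several alternatives. Ampka1WT cells raised Ccr1 with MSUc, and cells labelled Ampka1KO lowered it. Ccr1 in Ampka1WT was at 119, 118 and 111 TPM in PBS and at 466, 489 and 441 in MSUc. In cells labelled Ampka1KO it was at 227, 191 and 193 TPM in PBS and at 111, 138 and 148 in MSUc. No groups overlapped in these comparisons: the Ampka1KO cells were above Ampka1WT in PBS and below it in MSUc. The log2 change with MSUc was 2.00 ± 0.10 (adjusted p = 3.38e-08) in Ampka1WT and -0.62 ± 0.10 (0.00036) in Ampka1KO, and the difference of responses was -2.62 ± 0.15 (4.39e-07).

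Ccrl2 in Ampka1WT rose from 7.87, 7.39 and 8.08 TPM to 153, 146 and 163, and in cells labelled Ampka1KO from 20.9, 4.32 and 5.74 to 28.6, 29.9 and 22.9. The MSUc libraries of Ampka1KO lay above their PBS libraries but below every MSUc library of Ampka1WT (difference of responses -2.54 ± 0.54, adjusted p = 0.00268). In PBS the genotype difference of Ccrl2 was 0.07 ± 0.38 (0.901) with Ampka1KO PBS replicate 1 and -0.55 (0.00584) without it. Cxcr4 rose in Ampka1WT, from 371, 397 and 357 TPM to 588, 518 and 502 (0.51 ± 0.14, 0.00611; 0.87 rescaled), and fell in Ampka1KO, from 570, 408 and 388 to 248, 313 and 267 (-0.70 ± 0.14, 0.000989; -0.66 rescaled). The responses differed by -1.22 ± 0.19 (0.000409).

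Cx3cr1 in Ampka1WT was at 7.67, 7.95 and 8.35 TPM in PBS and 6.93, 6.12 and 8.85 in MSUc, overlapping (-0.13 ± 0.19, adjusted p = 0.586; 0.19 and 0.435 rescaled, with the sign flipped). In cells labelled Ampka1KO it fell from 11.4, 11.1 and 7.59 to 3.30, 2.53 and 1.72 TPM (-1.65 ± 0.19, 2.64e-05), without overlap, and the responses differed by -1.52 ± 0.27 (0.000888). Ccr2 fell in Ampka1WT from 17.2, 24.3 and 21.3 TPM to 3.52, 4.28 and 1.75 (-2.43 ± 0.47, 0.000759). In Ampka1KO it was at 2.31, 3.98 and 4.76 TPM in PBS, below every Ampka1WT PBS library (-2.25 ± 0.47, 0.00198), and at 2.12, 5.10 and 0.216 in MSUc, overlapping with PBS (-0.68 ± 0.47, 0.234). Its difference of responses, 1.75 ± 0.67 (0.0461), was lost after rescaling (0.0726), with a pseudocount of 0.1 (0.286), without the low-value filter (0.0827) and without 9 of the 12 libraries in turn (0.0589 to 0.106). Without Ampka1KO MSUc replicate 2 the Ccr2 fall in Ampka1KO was called (-1.23, 0.0220), as was the genotype difference in MSUc (-1.05, 0.0342; -0.50 and 0.356 with it).

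Members called were 4 of 5 for MSUc in Ampka1WT (63.7% of all genes) and 4 in Ampka1KO (58.5%), 2 between genotypes in PBS (47.7%), 4 in MSUc (71.8%) and 5 for the difference of responses (50.6%). Of the genes called between genotypes, 71.0% in PBS and 71.9% in MSUc were higher in Ampka1KO as deposited, and 50.4% and 47.0% after rescaling. Other cell types moved with the label. The 8 macrophage markers summed to 36980 to 41150 TPM in Ampka1WT PBS, 29290 to 35120 in Ampka1WT MSUc, 24730 to 27390 in Ampka1KO PBS and 8393 to 10530 in Ampka1KO MSUc, all 8 being above 1 TPM in each. The 5 fibroblast or stroma markers summed to 77.0 to 143, 66.6 to 217, 831 to 1353 and 2363 to 2969 TPM in the same order, with Col1a1, a collagen gene, at a mean of 49.4, 76.3, 583 and 1166. The 8 neutrophil markers summed to 17.9 to 27.2, 11.4 to 65.1, 136 to 213 and 334 to 392 TPM, and the 4 endothelial markers to 5.67 to 6.87, 4.95 to 5.71, 17.1 to 21.98 and 26.2 to 59.3. The 4 monocyte markers summed to 13.9 to 22.1, 4.82 to 18.7, 28.7 to 47.4 and 81.5 to 93.5 TPM, so they were higher in PBS in the cells labelled Ampka1KO, where Ccr2 was lower. No stroma, monocyte or macrophage marker was at 0, 1 endothelial marker was at 0 in Ampka1WT, and the part of other cells in the receptor differences was not tested.

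Metformin lowered Cx3cr1 in cells without crystals. In PBS Cx3cr1 was at 11.2, 16.2 and 13.1 TPM with vehicle and at 0.181, 0.168 and 0.25 with metformin. In MSUc it was at 0.821, 1.402 and 1.199 TPM with vehicle and 0.699, 0.320 and 0.133 with metformin. Vehicle PBS stood alone, above the other 3 groups. The log2 difference of metformin from vehicle was -3.58 ± 0.20 in PBS (adjusted p = 1.15e-07) and -0.64 ± 0.20 in MSUc (0.0207), on the log2(TPM + 1) scale that understates changes of low genes: with a pseudocount of 0.1 they were -5.50 and -1.51. The MSUc call was lost with a filter at 5 TPM (0.0665) and without vehicle MSUc replicate 2 (0.0726), vehicle MSUc replicate 3 (0.0534) or metformin MSUc replicate 3 (0.0770). MSUc changed Cx3cr1 by -2.75 ± 0.20 under vehicle and by 0.19 ± 0.20 (0.506) under metformin, and the responses differed by 2.94 ± 0.28 (8.05e-05). The metformin values rest on 3 to 6 reads in PBS and 3 to 12 in MSUc. At that floor a further fall with MSUc could hardly be seen.

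Cxcr4 was at 610, 533 and 668 TPM in vehicle PBS and 293, 278 and 319 in metformin PBS, without overlap (-1.02 ± 0.10, adjusted p = 7.22e-06). In MSUc it was at 544, 476 and 559 TPM with vehicle and 419, 379 and 426 with metformin (-0.36 ± 0.10, 0.00942). MSUc changed it by -0.20 ± 0.10 under vehicle (0.106; -0.04 rescaled; called without vehicle PBS replicate 2, -0.28, 0.0325) and raised it by 0.46 ± 0.10 under metformin (0.00441; 0.52 rescaled), and the responses differed by 0.65 ± 0.14 (0.00912). Ccr2 in PBS was at 3.61, 7.80 and 2.46 TPM with vehicle against 0.664, 1.52 and 0.087 with metformin, without overlap (-1.65 ± 0.43, 0.00978). In MSUc it was at 0.362, 1.76 and 0.517 with vehicle (a log2 change of -1.54 ± 0.43 from PBS, 0.00998) and 0.488, 1.88 and 0.277 with metformin, where it overlapped with PBS.

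Ccr1 and Ccrl2 still rose with MSUc under metformin. Ccr1 went from 25.7, 27.3 and 24.8 to 82.4, 145 and 127 TPM (2.11 ± 0.21, adjusted p = 4.05e-05), against 20.96, 14.9 and 11.6 to 104, 87.3 and 113 with vehicle (2.63 ± 0.21, 1.1e-06). In PBS metformin libraries held more Ccr1 than every vehicle library (0.71 ± 0.21, 0.019; lost without vehicle PBS replicate 2, 0.0536, vehicle PBS replicate 3, 0.52 and 0.0848, or metformin PBS replicate 2, 0.0556). Ccrl2 went from 19.4, 12.8 and 14.2 to 85.6, 87.8 and 88.9 TPM with metformin and from 25.5, 20.4 and 22.1 to 164, 126 and 136 with vehicle, and the metformin libraries were the lower ones in PBS (-0.54 ± 0.14, 0.00997) and in MSUc (-0.69 ± 0.14, 0.00239).

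Members called were 4 of 5 for MSUc under vehicle (53.9% of all genes), 3 under metformin (29.0%), 5 between treatments in PBS (39.5%), 3 in MSUc (43.6%) and 2 for the difference of responses (12.2%). Macrophage markers summed to 23170 to 25980 TPM in vehicle PBS, 19280 to 22330 in vehicle MSUc, 11470 to 13040 in metformin PBS and 13000 to 15520 in metformin MSUc, with all 8 above 1 TPM. Csf1r, the M-CSF receptor gene, was at 949 to 1017 TPM in vehicle PBS and 273 to 276 in metformin PBS. Fibroblast or stroma markers summed to 172 to 357 TPM in vehicle PBS and 68.7 to 214 in metformin PBS, which overlapped, and to 475 to 605 in vehicle MSUc and 154 to 340 in metformin MSUc, which did not. The mast cell list summed to 1.39 to 1.67 TPM in vehicle PBS, 2.33 to 5.97 in vehicle MSUc, 12.1 to 15.8 in metformin PBS and 10.9 to 19.7 in metformin MSUc. Kit was its 1 gene with a mean over 1 TPM in the metformin groups. The monocyte list summed to 12.5 to 20.8 TPM in vehicle PBS and 4.75 to 9.85 in metformin PBS, without overlap. In MSUc it summed to 27.3 to 42.3 TPM with vehicle and 11.3 to 23.2 with metformin, also without overlap. The neutrophil list summed to 16.2 to 74.0 TPM in vehicle PBS and 2.95 to 14.9 in metformin PBS, without overlap. In MSUc its sums overlapped (45.4 to 189 and 21.1 to 73.5 TPM). The part of culture composition in the receptor levels was not tested.

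**Figure D4:**
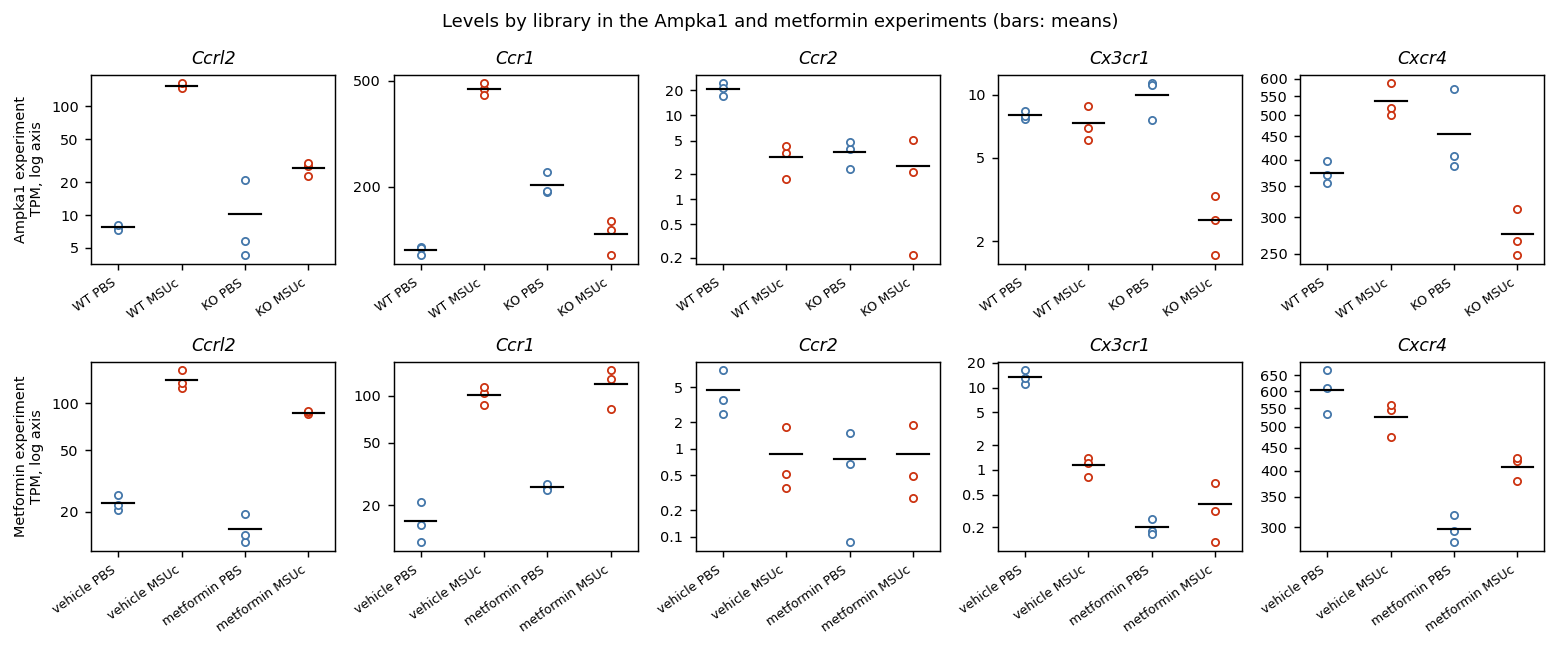
TPM (log axis) of the 5 receptors in PBS and MSUc for Ampka1WT and cells labelled Ampka1KO (3 libraries per group) and for vehicle and metformin (3 per group); points are libraries and bars group means. Ccr1 rises to 441 to 489 TPM in Ampka1WT and falls to 111 to 148 TPM in Ampka1KO, and Cx3cr1 is at 0.25 TPM or less in metformin PBS.

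Under SGC0946, as under vehicle, MSUc raised Ccr1 and Ccrl2 and lowered Ccr2 and Cx3cr1, while the direction of Cxcr4 depended on the scaling. Under vehicle 5 of 5 members were called in MSUc, against 55.4% of all genes, and under SGC0946 4 of 5, against 48.9%. In MSUc Ccrl2 was at 208, 199 and 204 TPM with SGC0946 and at 168, 126 and 150 with vehicle, without overlap (log2 difference 0.47 ± 0.11, adjusted p = 0.0155), and Cx3cr1 was at 1.89, 2.18 and 0.920 against 2.95, 4.21 and 2.98 (-0.74 ± 0.21, 0.0378). These were the 2 members called there, against 16.6% of all genes. The Ccrl2 call was lost without SGC0946 MSUc replicate 1 (0.0558) or replicate 3 (0.0519), and the Cx3cr1 call without vehicle MSUc replicate 2 (0.104), SGC0946 MSUc replicate 1 (0.0644) or replicate 3 (0.118), without the low-value filter (0.0659) and with the groups fitted alone (0.127).

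In PBS no member differed between SGC0946 and vehicle (0 of 5 by limma, 2 at an unadjusted p under 0.05, 0.673% of all genes), and no response differed (0 of 5 and 1 likewise, 0.0325%). Ccr1 rose from 25.7, 20.7 and 15.4 to 147, 129 and 141 TPM with vehicle, and from 27.1 and 21.97 to 128, 126 and 113 with SGC0946. Cxcr4 was at 556, 484 and 505 TPM in vehicle PBS and 422, 455 and 392 in MSUc, which did not overlap (-0.28 ± 0.07, 0.00393), but the value was -0.03 (0.731) after rescaling. Under SGC0946 the change of Cxcr4 was -0.17 ± 0.07 (0.076; 0.0143 with the groups fitted alone) and 0.14 rescaled, so its direction flipped.

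The ligands of these receptors were counted from a list of 13. In the time course 4 of 12 tested were called at 30 min (0.68% of all genes), 4 at 1 h (3.28%), 6 at 2 h (33.5%) and 7 at 5 h (49.3%). The 7 at 5 h were 6 higher, against 16.4% of all genes, and 1 lower, against 32.9%, with a median log2 change of 0.98 at 5 h against -0.23 over all genes. Ccl4, an inflammatory chemokine, was at 574 ± 13 TPM at 1 h (SD, n = 2) against 37.6 ± 8.8 in PBS (3.91 ± 0.22). Ccl2, the main ligand of CCR2, was at 466 ± 102 against 14.1 ± 7.0 at 1 h (5.02 ± 0.58). Ccl7, which binds CCR1 and CCR2, reached 363 ± 79 against 6.97 ± 3.44 at 1 h (5.57 ± 0.73). Ccl3, a CCR1 ligand, was at 1350 ± 253 TPM against 84.4 ± 42.9 at 2 h (4.07 ± 0.41).

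In the particle panel 11 of 13 ligands were called in MSUc (63.0% of all genes), 8 in CPPD (52.4%), 10 in silica (68.4%) and 6 in alum (46.2%), and the counts for CPPD, silica and alum lay near those shares. Those called higher were 8 in MSUc (18.1% of all genes), 7 in CPPD (16.6%), 8 in silica (24.4%) and 4 in alum (27.1%), with medians of 1.15, 1.01, 1.81 and 0.31 against -0.29, -0.20, -0.25 and 0.08 over all genes. In silica Ccl2 was at 397 ± 75 TPM against 4.58 ± 1.51 in PBS (6.18 ± 0.31), which exceeded MSUc by 2.82 ± 0.31, and Ccl7 exceeded MSUc by 3.04 ± 0.40. Ccl9, a CCR1 ligand, was at 1398 ± 93 TPM in CPPD against 324 ± 32 (2.11 ± 0.11).

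Between the Ampka1 genotypes 7 of 12 ligand responses to MSUc differed, near the 50.6% of all genes. Of these 5 were smaller in Ampka1KO (15.9% of all genes), among them Ccl3 (-4.76 ± 0.81), Ccl2 (-3.14 ± 0.31) and Ccl7 (-3.14 ± 0.35), and 2 were larger (34.7%), among them Cx3cl1 (2.42 ± 0.23). In MSUc Cxcl12, the CXCR4 ligand made by stroma, was at 77.5 ± 2.6 TPM in cells labelled Ampka1KO against 2.53 ± 1.10 in Ampka1WT (4.53 ± 0.21), and Cx3cl1 was at 68.4 ± 5.9 against 5.31 ± 1.47 (3.48 ± 0.16), beside the stroma marker sums given above. With metformin in PBS 3 of 12 ligands were higher and 2 lower, near the 39.5% of all genes called there, including Ccl3 (1.31 ± 0.17) and Ccl4 (1.03 ± 0.18).

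The genes that switch these receptors off were counted from 18, of which 16 were in the tables. In MSUc at 5 h 10 of 16 were called, against 49.3% of all genes (1 higher; 9 lower, against 32.9%; median -0.67 against -0.23 over all genes). In the particle panel 13 of 16 were called in MSUc (63.0% of all genes), 13 in CPPD (52.4%), 11 in silica (68.4%) and 10 in alum (46.2%), and the silica count lay near the share of all genes. The 13 in MSUc were 2 higher and 11 lower, against 44.9% of all genes lower (median -0.67 against -0.29). Arrb2 (arrestin) was at 73.4 ± 6.0 TPM against 292 ± 16 at 5 h (-1.98 ± 0.09) and Grk2, the receptor kinase, at 73.9 ± 1.7 against 203 ± 11 (-1.45 ± 0.08). Rgs1, which shortens G protein signals, went up: 1027 ± 213 TPM against 109 ± 13 at 2 h (3.22 ± 0.26) and 1748 ± 672 against 65.1 ± 7.3 in silica (4.68 ± 0.25).

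Of 25 genes of G protein and chemotaxis signalling, 15 were called at 5 h, against 49.3% of all genes (3 higher, 12 lower; median -0.37 against -0.23 over all genes), and 20 in the MSUc of the particle panel, against 63.0% (5 higher, 15 lower). Dock8, a Cdc42 activator used in migration, fell from 56.5 ± 5.0 to 9.03 ± 0.52 TPM there (-2.52 ± 0.11), and Gna13 rose from 94.4 ± 7.1 to 265 ± 18 (1.48 ± 0.09). Of 19 other chemoattractant receptors 14 were tested at 5 h, with 3 higher and 7 lower, against 16.4% and 32.9% of all genes. P2ry2, a nucleotide receptor, rose by 2.29 ± 0.18 and C5ar2, a C5a receptor, changed by -1.86 ± 0.20.

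Among the 24 chemokine receptor genes of the list, members included, 11 were tested in the time course and 10 in the particle panel. At 5 h 4 were higher and 2 lower, against 16.4% and 32.9% of all genes (median 0.02 against -0.23), and in the MSUc of the panel 4 were higher and 4 lower, against 18.1% and 44.9% (median -0.22 against -0.29 over all genes). The highest group mean of Ccr7 was 22.8 TPM, and lower ones were reached by Ccr3 (11.5), Cxcr3 (8.19), Ackr3 (7.79) and Xcr1 (7.26). Xcr1, a receptor known from cross-presenting dendritic cells, was at 4.21 ± 0.43 TPM in MSUc against 0.030 ± 0.029 in PBS in the particle panel (2.34 ± 0.14).

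The authors' deposited tables list regions whose ChIP signal was gained or reduced in MSUc against PBS, each given to the nearest gene. The members were named by 46 regions in the authors' deposited tables: 19 for Ccr1, 5 for Ccr2, 8 for Cx3cr1, 11 for Cxcr4 and 3 for Ccrl2. Many of these overlap, and merged by overlap they came to 11, 2, 4, 8 and 1 places in that order. The regions named for other genes were not counted, so these numbers are not high or low for the members. By the authors' deposited tables the members held 8 of 4756 gained and 6 of 4208 reduced DOT1L regions, 9 of 4446 gained TFE3, 5 of 5667 gained TFEB, 1 of 2081 gained and 11 of 1838 reduced H3K27ac, and 0 of 1168 gained and 6 of 868 reduced H3K4me3 regions. H3K27ac marks active enhancers and promoters and H3K4me3 marks active promoters. Since these lists hold selected regions only, a gene's absence from them is no measurement. Replicate 1 is the only TFE3 ChIP library titled MSUc, so by the labels each gained TFE3 region rests on 1 MSUc library.

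Ccrl2 had 1 place, 28.8 kb upstream of its start at chr9:111085295-111087295, which the authors' deposited tables annotate as intergenic and list as gained for DOT1L, TFEB and H3K27ac. H3K27ac there was 37.4, 43.8 and 35.1 normalised tags in PBS and 98.0 and 91.6 in MSUc in the authors' deposited table, with a log2 change of 1.24 and an adjusted p of 0.0116. This was the 1 gained H3K27ac region among the 5 genes. Lrrfip2, on the plus strand, starts at chr9:111118111 on the other side of this region, at a distance similar to that of the Ccrl2 start. The nearest-gene rule thus gave the place to Ccrl2 by a small margin. Ccr1 had 3 intergenic places, 41.3, 44.4 and 45.3 kb beyond its start on the downstream side, in the gained lists of DOT1L, TFE3 and TFEB alike, and 1 at 31.9 kb in those of TFE3 and TFEB, by the authors' deposited tables. Nearer the gene, at 27.1 kb, the authors' deposited tables list a reduced H3K27ac region (97.6, 154 and 91.8 tags in PBS, 50.4 and 67.0 in MSUc, log2 change -1.002, adjusted p 0.0457) that overlaps a reduced DOT1L region.

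Ccr2, Cx3cr1 and Cxcr4 had reduced histone marks. At Ccr2 the authors' deposited tables list H3K27ac and H3K4me3 as reduced in the first intron, 1.23 kb from the start (chr9:124102409-124104409; H3K27ac 230, 210 and 342 tags in PBS and 95.2 and 133 in MSUc, log2 change -1.24, adjusted p 0.00105). A place 30.5 kb upstream is listed in the authors' deposited tables as reduced for H3K27ac (-1.03, adjusted p 0.000911), H3K4me3 (-1.32, 0.0268) and DOT1L. Over the Cx3cr1 start, where the printed window lies, H3K27ac was 136, 85.5 and 157 tags in PBS against 54.6 and 54.7 in MSUc (-1.26, adjusted p 0.00701) and H3K4me3 was 91.8 and 114 against 51.2 and 29.5 (-1.35, 0.00613) in the authors' deposited tables. All MSUc values lay below all PBS values there, but the region was listed for a reduction in these same values, so this is no separate evidence. An overlapping window is listed as reduced for each mark as well.

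Over the Cxcr4 start the authors' deposited tables give H3K27ac as 267, 394 and 311 tags in PBS and 122 and 198 in MSUc (-1.06, adjusted p 0.00325), and H3K4me3 as 125 and 119 against 67.0 and 51.9 (-1.05, 0.0126). This window holds the printed Cxcr4 sequence with its GC boxes and TATA box. The RNA of Cxcr4 was called higher in 3 and lower in 3 of the 8 control comparisons with MSUc as deposited, and higher in 3 and lower in 1 after rescaling. Gained TFE3 regions overlapped reduced H3K27ac windows at 155 kb upstream of Cxcr4 and at the 3′ end of Cx3cr1, 18.7 kb from its start, by the authors' deposited tables.

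**Figure D5:**
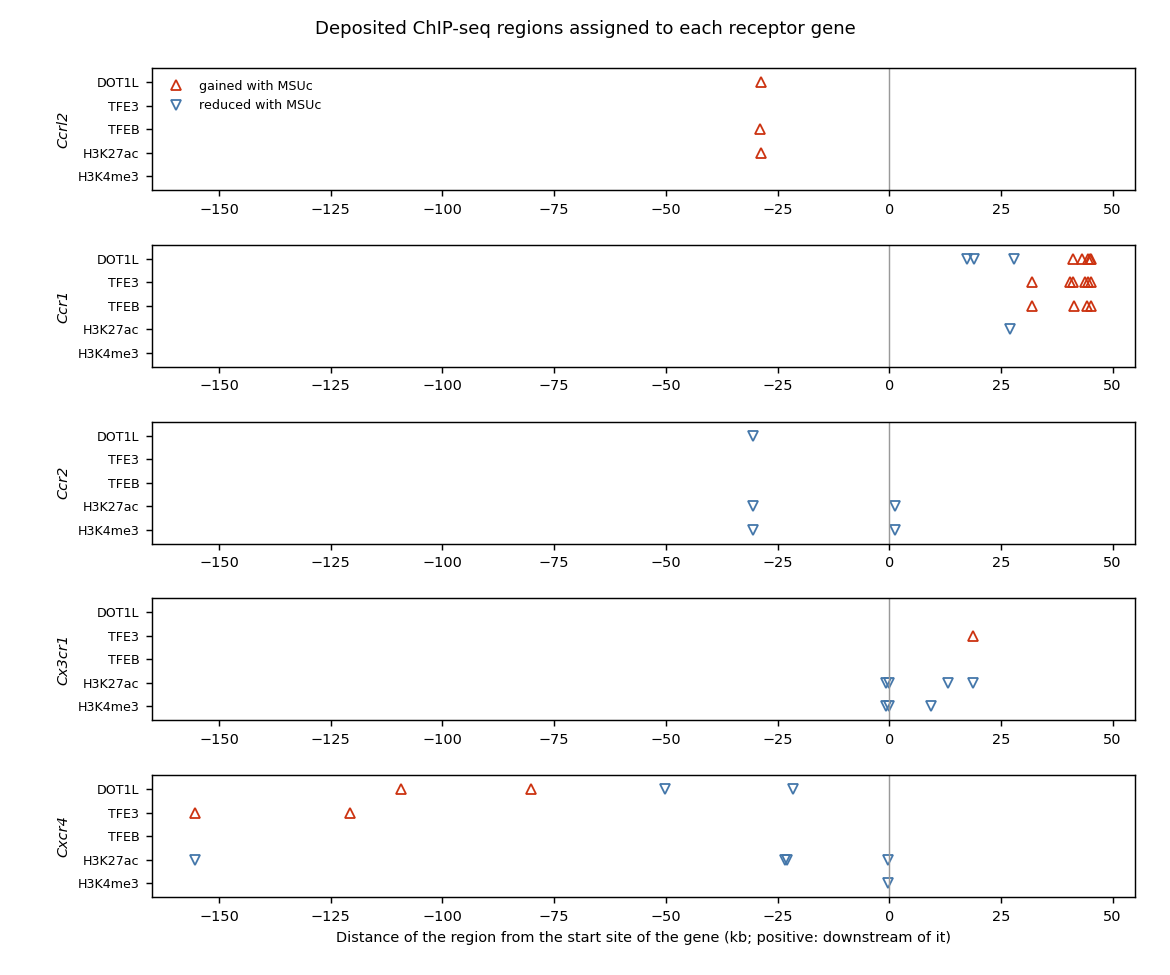
Regions listed for each receptor in the authors' deposited tables, plotted by distance from the gene's start in kb (negative is upstream) with 1 row per target; triangles pointing up are gained and triangles pointing down reduced regions. Gained DOT1L, TFE3 and TFEB regions gather 40 to 45 kb from the Ccr1 start, and reduced H3K27ac and H3K4me3 regions lie over the starts of Cx3cr1 and Cxcr4.

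The pattern over conditions was set beside that of other genes by Pearson's r of group mean log2(TPM + 1), centred within each experiment, over 45 groups that share control libraries and depth, among 9099 genes with a mean of at least 5 TPM. Ccrl2 was most like Cxcl2 (0.97), Cxcl1 (0.97) and Hcar2 (0.96), and Ccr1 most like Hilpda (0.96), Il1rn (0.95) and G530011O06Rik (0.95). Ccr2 was most like Fam105a (0.95), Pot1b (0.95) and 4833420G17Rik (0.94), and Cx3cr1 most like Galnt12 (0.94), Fmnl1 (0.93) and Zfyve28 (0.93). The closest genes to Cxcr4 were less close: Ncapg2 (0.76), Arhgap18 (0.76) and Crebrf (0.76). Among the members, r was 0.89 for Ccr1 with Ccrl2, 0.87 for Ccr2 with Cx3cr1, -0.80 for Ccr1 with Ccr2 and -0.84 for Ccr1 with Cx3cr1, while Cxcr4 had r of -0.07 with Ccr1, -0.06 with Ccrl2 and 0.37 with Ccr2 and with Cx3cr1.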

How the data were processed

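Poly-A RNA was sequenced from strand-marked (dUTP) libraries, per the labels' protocols, and STAR, HOMER and mm10 are named in the submitters' processing notes. The unit of the expression values deposited by the authors is not stated in the sources used here, and they were taken as TPM. Value times transcript length fell on whole reads for at least 99.99% of the low values checked (tolerance 0.15 reads). The size of a read was fitted to the same values. This shows values per transcript length, and other such units (RPKM) would give it too, so it does not settle the unit. The deposited values summed to between 528079 and 569594 TPM per library. No source used here states a common scale, so each table was treated as scaled on its own. Depth was 2.12 to 22.1 M reads per library, and the number of libraries per group, 2 or 3, limits the precision.

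From these values log2(TPM + 1) was tested with limma 3.58.1 (R 4.3.3; trended variance, all groups of an experiment in 1 fit), over genes that reached 1 TPM in at least the number of libraries of the smallest group, with Benjamini-Hochberg adjusted p under 0.05 as the call. A fold on this scale understates the change of low genes. The 5 members were tested in 55 comparisons. Alternatives were median-of-ratios scaling, a pseudocount of 0.1, no filter, a filter at 5 TPM, the compared groups alone, the replicate number as a block, each library left out, the library with conflicting fields counted as PBS, and the Tfe3KO libraries numbered 1 left out. A block of exchanged numbers in the time course was added after seeing the data. The fits were tested on simulated data: with 12040 genes of the 5 h comparison, 65% of 2-fold and 97% of 4-fold changes were recovered. The simulated libraries had 1 fixed spread, no deviation shared across groups and 100 changed genes at each fold. The real time course differs in these points, so the rates are not its power.

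ChIP signal (normalised tag counts per 2000-base window), log2 changes and p-values are those of the authors' deposited tables for 5 h of MSUc (H3K27ac and H3K4me3), per the file headers. The log2 values and p-values deposited by the authors were copied, not refitted. DOT1L, TFE3 and TFEB lists give positions only. 2 expression columns and 4 ChIP columns that match no sample were not used.

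Same-numbered libraries were checked for pairing against PBS. All 3 pairs deviated together (r across genes over 0.1) for Tfe3WT CPPD (0.12 to 0.19), Tfe3KO CPPD (0.17 to 0.29) and Tfe3KO silica (0.12 to 0.23). The main fits had no term for pairing, in these comparisons or any other, so the p-values given are unpaired. The replicate number entered only as a block among the alternatives. Of each gene list, up to 4 genes with the smallest p in a family of comparisons are named, and for each member the 3 genes most like it. The members and lists were chosen with earlier results of these data known. The values of 1 further gene of the lists are not reported here.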

Additional observations from a re-analysis of the deposited data

Results flagged for a closer look

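The responses to MSUc of all 5 receptors differed between Ampka1WT cells and cells labelled Ampka1KO by the interaction test of limma. The log2 response of Ampka1KO minus that of Ampka1WT was -2.62 for Ccr1, -2.54 for Ccrl2, -1.52 for Cx3cr1, -1.22 for Cxcr4 and 1.75 for Ccr2, where 50.6% of all genes differed as well. The call for Ccr2 (adjusted p = 0.0461) was lost after rescaling (0.0726), with a pseudocount of 0.1, without the low-value filter and without 9 of the 12 libraries in turn. Between the genotypes in MSUc the stroma markers summed to 66.6 to 217 TPM in Ampka1WT and 2363 to 2969 in Ampka1KO and the macrophage markers to 29290 to 35120 and 8393 to 10530, and their part in these differences was not tested. The response under metformin minus that under vehicle was 2.94 for Cx3cr1 and 0.65 for Cxcr4, with 12.2% of all genes differing. For Cx3cr1 the metformin PBS libraries were already at 0.168 to 0.25 TPM on 3 to 6 reads. From that floor a further fall with MSUc could hardly be seen. For Ccrl2 the MSUc response of cells labelled Tfe3KO minus that of Tfe3WT was -1.13, with 1.73% of all genes differing.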

How the results depend on the processing

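Leaving out 1 library at a time kept 1633 of 1700 member values on their side of the threshold with their sign, ended 56 calls, made 10 and reversed 1: Ccrl2 between Ampka1 genotypes in PBS, -0.55 without Ampka1KO PBS replicate 1 (-0.55 to 0.47 over the 6 libraries left out). Rescaling reversed Cxcr4 between alum and MSUc (-0.025), and counting the library with conflicting fields as PBS reversed Cx3cr1 between TfebTg and TfebWT in PBS (0.0068). That library as PBS also left 4 of 10 calls for MSUc in the Tfeb experiment and 0 of 2 between its genotypes. Between SGC0946 and vehicle 1 of 2 calls was left without the low-value filter, 1 with the groups alone and 1 with the replicate block. Between Bhlhe genotypes 1 of 2 was left without the filter and 1 with the groups alone. Between Tfe3 genotypes there were 2 calls in place of 1 with a pseudocount of 0.1 and 2 with the replicate block. A block of exchanged numbers in the time course, chosen after seeing the data, gave 13 calls in place of 8, the 5 added being Ccr1 at 1 h and Cx3cr1 and Cxcr4 at 2 h and at 5 h. The replicate block as numbered changed 6 of 275 values, 2 of them lost calls and 4 new ones. With 1 library left out, calls ranged from 7 to 9 in the time course (8 with all), 13 to 15 in Tfe3WT (15), 1 to 2 between Tfe3 genotypes (1), 1 to 3 for their responses (1), 1 to 3 between Tfeb genotypes (2), 1 to 2 between Bhlhe genotypes (2) and 0 to 2 for SGC0946 (2). Depth limits Ccr2 and Cx3cr1 most, with as few as 1 and 3 reads.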
